A study of Homo sapiens with 32 samples.

Results

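Chromatin loops at 59 genes for developmental transcription factors outside the HOX clusters were described in 4 loop lists from in situ Hi-C, a method that ligates DNA ends lying close together in the nucleus and sequences the junctions. A loop was taken when at least 1 of its 5 kb anchors lay within 10 kb of the 5′ end of a listed gene in the GENCODE annotation of hg38. The rule found 212 of the 45629 loops, at 45 of the 59 genes. The wild-type control list held 59 of 15180 loops, the wild-type sorbitol list 41 of 5906, the eGFP-YAP control list 87 of 18966 and the eGFP-YAP sorbitol list 25 of 5577. No expression was measured in these files, so neither the state of these genes nor the labelled cell type could be checked against marker genes.

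The cells were human HEK293, a line derived from embryonic kidney, although the growth protocol names HEK293T. The wild-type groups were untreated cells and cells given 200 mM sorbitol for 1 h, a hyperosmotic stress that draws water out of cells, with 3 samples each in the labels. The eGFP-YAP groups, in cells whose genotype is a fusion of eGFP to the transcriptional co-activator YAP, were untreated or given the same sorbitol for 1 h, with 4 samples each. The design text describes 1 h of serum starvation for the eGFP-YAP cells and does not say so for wild type, and how the eGFP-YAP line was made is not given. These 14 of the 32 samples correspond to the 4 lists by name, and the other 18 samples were not analysed here. Each condition had 1 pooled list with no replicate, so no test between conditions was possible, and intervals given below cover counting error only and treat neighbouring loops as independent, which they are not. A further word in each list's name, unexplained in the labels, is different for the 2 lines, so cell line and origin cannot be told apart.

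Developmental transcription factors bind DNA through homeodomains, paired boxes, T-boxes, forkhead domains, zinc fingers, HMG boxes or basic helix-loop-helix domains, and they set cell identity in the embryo. In cells that do not use them their CpG-rich promoters are often held silent by Polycomb complexes, and such silent genes can contact each other over long distances, while other loops are formed by cohesin, which extrudes DNA until it meets CTCF bound at motifs that face each other. Many of these genes stand in wide regions with few other genes, where distant enhancers are found.

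The sequences below show the DNA at the loops that the results turn on. First come matches to the CTCF consensus motif, searched by name on both strands with at most 1 mismatch, with the match in capitals and the rest in lower case. They were read from the copy of hg38 and are printed 5′ to 3′ on the strand of the match. The first pair lies in the anchors of the SOX2 loop of 550 kb that both control lists held and neither sorbitol list did.
SOX2 near anchor, chr3:181709685-181709728, plus strand, in an exon of the long noncoding RNA gene SOX2-OT and an intron of ENSG00000289435: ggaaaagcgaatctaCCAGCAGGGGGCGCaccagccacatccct
SOX2 far anchor, chr3:182258744-182258787, minus strand, intergenic: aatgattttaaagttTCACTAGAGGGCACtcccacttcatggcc
DLX2 near anchor, chr2:172104008-172104051, minus strand, in an exon of the noncoding gene DLX2-DT: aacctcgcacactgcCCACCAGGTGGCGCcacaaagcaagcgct
FOXC1 near anchor, chr6:1596414-1596457, plus strand, intergenic: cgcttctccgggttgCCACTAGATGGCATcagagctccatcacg
FOXC1 far anchor, chr6:2634622-2634665, minus strand, in an exon of the noncoding gene LINC02521: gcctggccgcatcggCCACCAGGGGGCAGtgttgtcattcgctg
NKX2-2 far anchor, chr20:21236205-21236248, plus strand, in an intron of KIZ, 1 of 2 matches in that anchor: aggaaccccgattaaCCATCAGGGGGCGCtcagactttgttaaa
The SOX2 near match, the DLX2 match and the FOXC1 far match had 0 mismatches and the other 3 had 1. The SOX2 matches face each other across the loop, as do the FOXC1 matches, which lie in the anchors of the eGFP-YAP control loop of 1035 kb. The FOXC1 near anchor served 9 loops in 4 lists, the DLX2 anchor 4 loops in 3 lists, and the NKX2-2 far anchor 3 loops in 3 lists. A match is a description of the letters and says nothing of binding in these cells.

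The second set shows the 250 bases before the start of 4 genes from RefSeq (GRCh38.p14), on the gene's strand, with each CG in capitals, because a high density of CG marks the CpG-island promoters that these gene families are known for. FOXC1 and DLX2 had the most loops, SOX2 had the control-only loop with the highest mean score rank among those within the 10 kb limit in both lines, and NEUROG2 is shown as a promoter with few CG whose loops were in control lists only.
FOXC1, chr6:1609665-1609914, plus strand, 37 CG: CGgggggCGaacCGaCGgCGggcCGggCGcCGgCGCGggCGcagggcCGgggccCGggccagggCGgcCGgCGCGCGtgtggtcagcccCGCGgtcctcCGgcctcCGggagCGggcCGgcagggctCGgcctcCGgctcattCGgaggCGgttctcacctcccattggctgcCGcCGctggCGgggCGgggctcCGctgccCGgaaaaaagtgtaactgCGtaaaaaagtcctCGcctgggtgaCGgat
DLX2, chr2:172102901-172103150, minus strand, 25 CG: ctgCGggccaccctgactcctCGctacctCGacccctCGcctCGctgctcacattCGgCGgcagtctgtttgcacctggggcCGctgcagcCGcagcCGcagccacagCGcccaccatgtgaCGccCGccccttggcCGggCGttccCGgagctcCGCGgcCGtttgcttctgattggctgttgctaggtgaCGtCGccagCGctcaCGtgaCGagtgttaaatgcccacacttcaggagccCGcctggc
SOX2, chr3:181711675-181711924, plus strand, 20 CG: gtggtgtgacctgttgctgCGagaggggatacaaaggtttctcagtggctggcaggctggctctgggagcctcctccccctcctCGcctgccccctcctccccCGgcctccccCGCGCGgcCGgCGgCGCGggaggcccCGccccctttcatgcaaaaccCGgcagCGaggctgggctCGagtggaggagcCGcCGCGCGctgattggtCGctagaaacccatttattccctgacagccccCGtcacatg
NEUROG2, chr4:112516181-112516430, minus strand, 7 CG: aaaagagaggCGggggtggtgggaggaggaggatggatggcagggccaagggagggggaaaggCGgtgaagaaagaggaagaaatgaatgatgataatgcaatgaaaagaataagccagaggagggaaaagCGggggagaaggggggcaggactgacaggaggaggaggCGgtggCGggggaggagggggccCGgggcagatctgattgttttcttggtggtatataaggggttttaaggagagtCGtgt
RefSeq windows were matched for 43 of the 59 genes. Over their 67 windows of 300 bases, which reach 50 bases past the start, the median was 23 CG (range 2 to 50), and over all 35116 windows it was 14. At least 20 CG were present in 64.2% of the listed genes' windows and in 41.2% of all windows.

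In both lines fewer listed genes had a loop in the sorbitol list than in the control list. In wild type 30 of 59 genes (50.8%) had a loop in the control list and 17 (28.8%) in the sorbitol list, while by the same rule 29.2% and 27.8% of all 19962 protein-coding genes did. In eGFP-YAP cells the counts were 35 genes (59.3%) and 20 genes (33.9%), against 37.6% and 28.6% of all protein-coding genes. Wilson 95% intervals of the listed genes' shares ran from 38.4% to 63.2% and from 18.8% to 41.4% in wild type, and from 46.6% to 70.9% and from 23.1% to 46.6% in eGFP-YAP cells. The listed genes thus had a larger share with a loop than all genes in the control lists and a share near that of all genes in the sorbitol lists.

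This difference moved with the length of the lists. When every list was cut to its 5577 highest-scoring loops, the listed genes with a loop were 28.8% in both wild-type lists, and 25.4% in control and 33.9% with sorbitol in eGFP-YAP cells. All protein-coding genes at that length had 12.0% and 26.7% in wild type and 11.8% and 28.6% in eGFP-YAP cells. At equal length the listed genes' share was therefore the same or higher with sorbitol, and the share over all genes was more than 2 times as high with sorbitol as in control.

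Comparison lists of genes showed different values by the same rule. Among 87 other developmental transcription factor genes, 49.4% had a loop in the wild-type control list and 29.9% in the sorbitol list, and in eGFP-YAP cells 48.3% and 19.5%. Among 74 genes for broadly expressed transcription factors the order was the opposite in wild type, with 24.3% in control and 47.3% with sorbitol, and the eGFP-YAP lists had 44.6% and 48.6%. Among 39 genes for subunits of the Polycomb complexes themselves, the shares were 35.9% and 41.0% in wild type and 51.3% in both eGFP-YAP lists. These shares also moved with list length. At equal length the other developmental genes had 35.6% and 27.6% in wild type and 26.4% and 19.5% in eGFP-YAP cells, the broadly expressed factors 9.46% and 45.9%, then 13.5% and 48.6%, and the Polycomb subunits 10.3% and 38.5%, then 0% and 51.3%. The comparison lists were chosen with earlier results of these data known, and no set was tested against another.

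**Figure D1:**
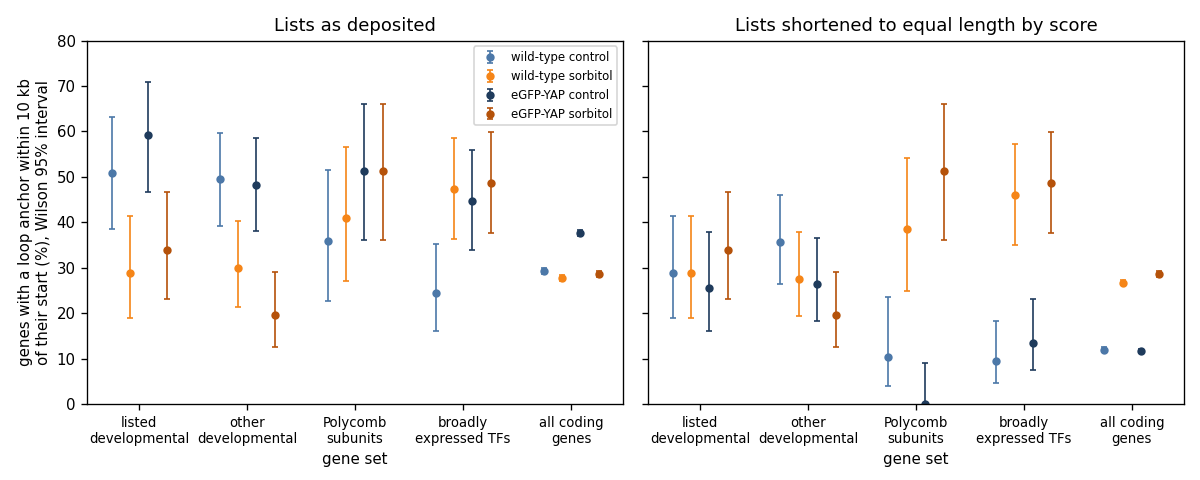
Share of genes with a loop anchor within 10 kb of their start, in percent with Wilson 95% intervals, for 5 gene sets (horizontal axis) and the 4 loop lists (colours), with the lists as deposited on the left and cut to equal length by score on the right. On the left the listed genes stand at 50.8% and 59.3% in the control lists against 28.8% and 33.9% in the sorbitol lists, and on the right at 25.4% to 33.9% in all 4.

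By number of loops, the listed genes had 59 in the wild-type control list and 41 with sorbitol, a ratio of 0.695 (exact 95% interval 0.455 to 1.05). Loops at the start of any protein-coding gene had a ratio of 0.655 (0.628 to 0.683), inside that interval, and all loops a ratio of 0.389. In eGFP-YAP cells the listed genes had 87 loops in control and 25 with sorbitol, a ratio of 0.287 (0.176 to 0.453), beside 0.473 (0.455 to 0.492) at any protein-coding start and 0.294 over all loops. Cut to equal length, the ratios were 1.38 (0.834 to 2.31) and 0.893 (0.499 to 1.59) at listed genes, and 1.71 and 1.83 at any protein-coding start. Loops at listed genes made up 0.389% of the wild-type control list, 0.694% of the sorbitol list, and 0.459% and 0.448% of the eGFP-YAP lists.

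The loops were unevenly divided among the genes. FOXC1, DLX2, MEIS1, DLX5 and ZIC2 together accounted for 87 of the 212 loops (41.0%). FOXC1, a forkhead factor of eye, heart and skull development, had 7 loops in the wild-type control list, 8 in the wild-type sorbitol list, 9 in the eGFP-YAP control list and 3 in the eGFP-YAP sorbitol list. DLX2, a homeodomain factor of forebrain interneurons and the jaw, had 5, 5, 7 and 3 loops in the same order. Both genes had loops in every list, and both had their lowest count in the eGFP-YAP sorbitol list. MEIS1, a homeodomain cofactor of HOX proteins, had 6 loops, 4 loops, 5 loops and 0 loops. DLX5, a relative of DLX2 active in bone and the inner ear, had 2, 1, 9 and 2 loops. ZIC2, a zinc finger factor of midline forebrain development, had 4, 5, 2 and 0 loops. MEIS1 and ZIC2 thus had loops in both wild-type lists and in the eGFP-YAP list of control cells only.

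**Figure D2:**
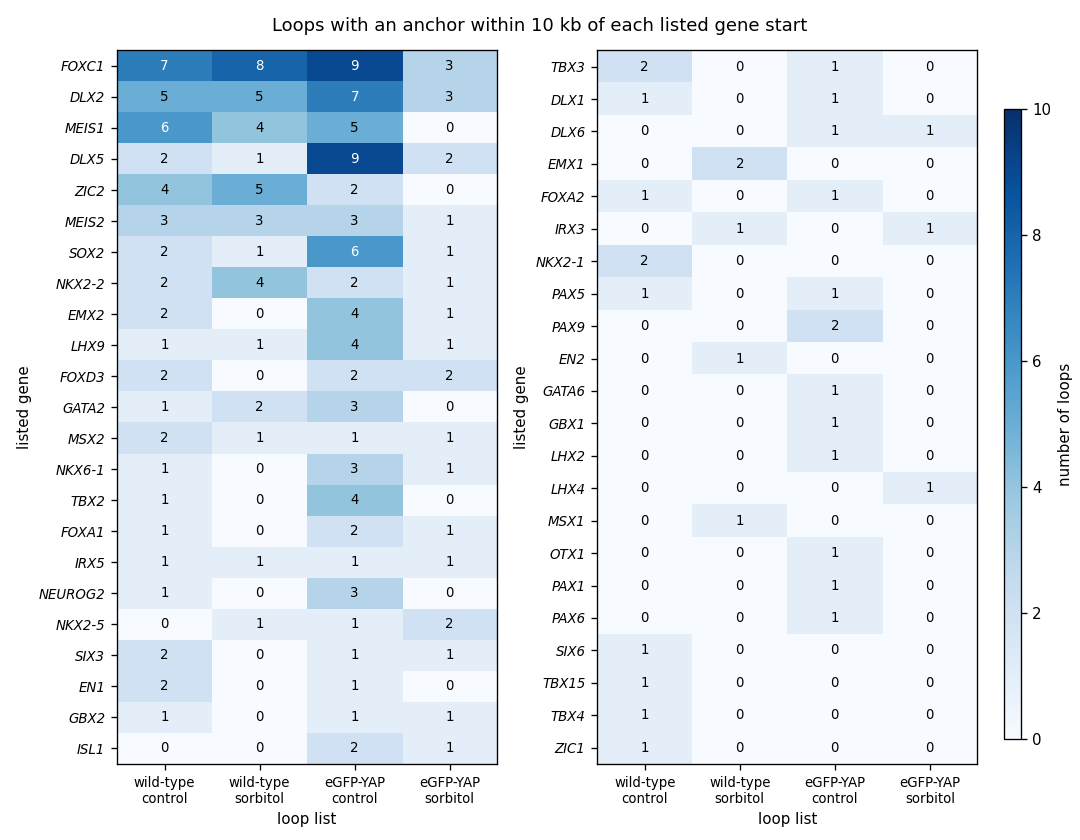
Number of loops (printed and coloured) with an anchor within 10 kb of the start of each of the 45 listed genes that had any, in the 4 loop lists. FOXC1 has 7, 8, 9 and 3 loops, most genes have 0 to 2 in each list, and a loop with 2 listed genes at its anchors is counted at both.

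Across gene families, with each loop counted at its nearest listed start, homeodomain genes of the DLX family had 7 and 6 loops in wild type and 16 and 5 in the eGFP-YAP lists, and forkhead genes had 11, 8, 14 and 6. The T-box genes, which act in limb and heart development, had 5 loops in each control list and 0 in each sorbitol list. The paired-box genes had 1 loop and 5 loops in the control lists and 0 in both sorbitol lists. The only listed basic helix-loop-helix gene, NEUROG2, which drives neuron formation, had 1 loop and 3 loops in the control lists and 0 with sorbitol. All loops together had a sorbitol to control ratio of 0.389 for the wild-type lists and 0.294 for the eGFP-YAP pair. Control counts of 1 to 5 are too small to set a family's 0 against these ratios, and no family was tested. The TALE homeodomain genes of the IRX and MEIS families had 10 and 8 loops in wild type and 9 and 2 in eGFP-YAP cells. NKX homeodomain genes were more even, with 5 and 5 loops in wild type and 6 and 4 in eGFP-YAP cells. LIM-homeodomain genes had 1 loop in each wild-type list and 7 and 3 loops in the eGFP-YAP lists. GATA zinc finger genes had 1, 2, 4 and 0 loops, SIX3 and SIX6 together 3, 0, 1 and 1, SOX genes 2, 1, 6 and 1, and ZIC genes 5, 5, 2 and 0. OTX and EMX genes had 2, 2, 5 and 1 loops, and EN, GBX and MSX genes had 5, 3, 4 and 2.

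Gene by gene, 18 listed genes (30.5%) in wild type had loops in the control list and none with sorbitol, against 16.7% of all protein-coding genes. Another 5 (8.47%, against 15.3%) had loops only with sorbitol, namely EMX1, EN2, IRX3, MSX1 and NKX2-5, and 12 (20.3%, against 12.5%) had loops in both lists. In eGFP-YAP cells 17 genes (28.8%, against 21.5%) had loops in control only, 2 genes (3.39%, against 12.5%), IRX3 and LHX4, with sorbitol only, and 18 genes (30.5%, against 16.1%) in both. DLX2, DLX5, FOXC1, IRX5, LHX9, MEIS2, MSX2, NKX2-2 and SOX2 had at least 1 loop in each of the 4 lists (15.3% of the listed genes, against 6.73% of all protein-coding genes). DLX1, EN1, FOXA2, NEUROG2, PAX5, TBX2 and TBX3 had loops in both control lists and in neither sorbitol list (11.9%, against 7.58%). The wild-type DLX1 loop had a partner in the wild-type sorbitol list, but that partner's anchor lay within 10 kb of DLX2 and not of DLX1. IRX3 was the only listed gene with loops in both sorbitol lists and in neither control list (1.69%, against 5.22%). The 14 genes GATA4, IRX1, IRX2, LHX3, LHX5, LHX6, LHX8, NKX6-2, OTX2, PAX7, SOX1, SOX17, TBX5 and ZIC4 had no loop in any list (23.7%, against 39.1% of all protein-coding genes). A few starts have another coding gene's start close by, at 0.43 kb for FOXA1, 0 kb for NKX2-1, 5.57 kb for PAX6 and 6.397 kb for SIX6, and their loops cannot be assigned to 1 gene. The nearest other coding start lies 9.272 kb from that of LHX9 and 10.017 kb from that of ZIC2, so loops counted there may be ambiguous too. For example, the near anchor of the ZIC2 control loop of 250 kb in wild type also lies within 10 kb of the ZIC5 start. An anchor can also lie within 10 kb of 2 starts that are further apart. The nearest other coding start was at 13.087 kb for GBX1, 13.387 kb for ZIC1, 18.16 kb for DLX1 and DLX2, and 19.397 kb for DLX5 and DLX6. Both loops counted at DLX6 were also counted at DLX5.

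Control loops at listed genes were compared with the sorbitol list of the same line, and called again means that a loop of that list had each anchor centre at most 10 kb away. In wild type 17 of 59 control loops (28.8%, interval 18.8% to 41.4%) were called again, against 7.81% of all control loops and 10.9% of those at any protein-coding start. The recurring wild-type control loops stood at few genes, counted at the nearest listed start, with 5 at FOXC1, 4 at DLX2, 3 at MEIS1 and 1 each at DLX1, MEIS2, MSX2, NKX2-2 and ZIC2. Without the loops of FOXC1, DLX1 and DLX2, a choice made after seeing the data, the share was 14.9% (7 of 47, interval 7.41% to 27.7%). In eGFP-YAP cells 11 of 87 control loops (12.6%, interval 7.21% to 21.2%) were called again, against 9.28% of all and 11.5% at any protein-coding start. Of these 11, FOXC1 had 2 and DLX2, DLX5, EMX2, FOXA1, FOXD3, LHX9, MEIS2, NKX2-2 and SIX3 had 1 each.

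In the wild-type sorbitol list, 24 of 41 loops at listed genes (58.5%, interval 43.4% to 72.2%) had no control partner, against 79.9% of all sorbitol loops. In eGFP-YAP cells the count was 14 of 25 (56.0%, interval 37.1% to 73.3%), against 68.4%. Without FOXC1, DLX1 and DLX2 the wild-type share was 75%. Wild-type sorbitol-only loops included 4 of the 5 ZIC2 loops, 3 of the 4 NKX2-2 loops, 3 of the 8 FOXC1 loops and both EMX1 loops. Another coding start lies 10.017 kb from that of ZIC2, so loops counted at ZIC2 may lie as near to that gene.

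**Figure D3:**
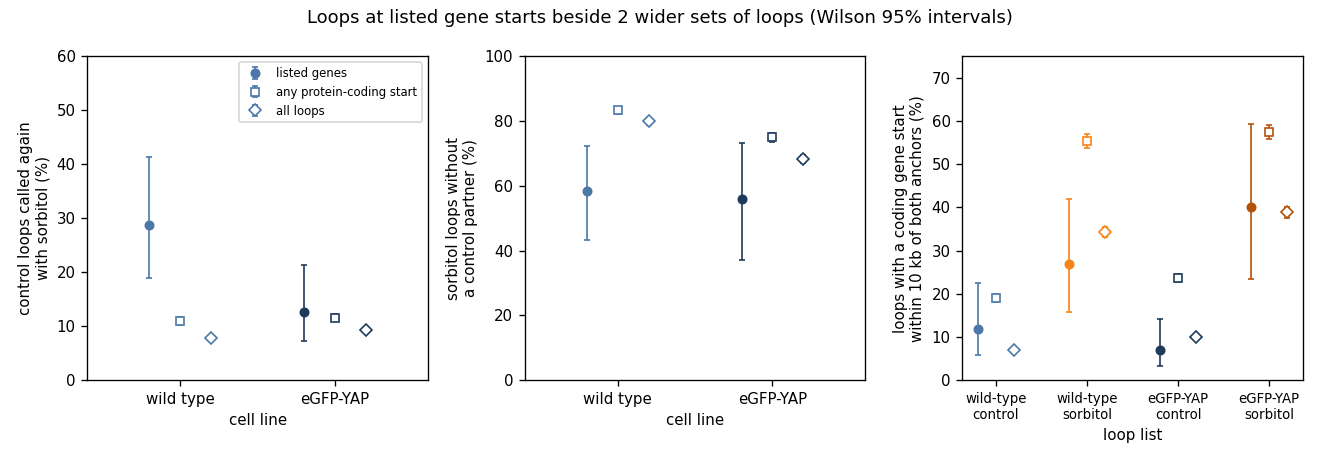
Loops at listed genes (filled circles) beside loops at any protein-coding start (squares) and all loops (diamonds), in percent with Wilson 95% intervals: control loops called again with sorbitol, sorbitol loops without a control partner, and loops with a coding start within 10 kb of both anchors. In wild type 28.8% of the listed genes' control loops were called again against 7.81% of all loops.

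Matching over all lists left 156 distinct loops at listed genes, counting loops linked by a chain of matches as the same. Of these, 115 were in 1 list, 30 in 2 lists, 7 in 3 lists and 4 in all 4. The 4 were at FOXC1, DLX2, NKX2-2 and MEIS2, and in the first 3 every pair of lists matched directly. These 3 made up 5.08% and 7.32% of the listed genes' loops in the wild-type lists (control, then sorbitol) and 3.45% and 12.0% in the eGFP-YAP lists, against 2.71%, 6.47%, 2.14% and 7.32% of all loops. Between the lines, under the same treatment, 24 of 59 wild-type control loops (40.7%) had a partner in the other line, against 40.2% of all loops of that list. The share was 14.6% in wild-type sorbitol (against 24.2%), 31.0% in eGFP-YAP control (32.2%) and 28.0% in eGFP-YAP sorbitol (25.7%), so control loops at listed genes recurred between lines about as often as control loops in general.

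The FOXC1 loop in all 4 lists joined chr6:1600001-1605000, whose centre lies at -7.414 kb from the gene's start, to chr6:2105001-2110000 in wild-type control cells, a span of 505 kb. Its far anchor lay inside GMDS, a gene for an enzyme of fucose synthesis. Its score rank, the percentile of the caller's peak score within its own list, was 92.1 in wild-type control, 82.3 with sorbitol, 96.4 in eGFP-YAP control and 77.0 with sorbitol. It stood high in each list, and ranks in lists of different length do not measure a change in strength. FOXC1 also kept loops of 425 kb (rank 98.8), 305 kb, 200 kb and 55 kb in wild type, with sorbitol partners of 420 kb (rank 99.4), 300 kb, 200 kb and 55 kb. Of its 27 loops, 26 had the far anchor downstream of the gene's start. The single upstream loop, of 920 kb to the start of EXOC2, a subunit of the exocyst, was in the wild-type sorbitol list with rank 99.5.

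Several FOXC1 loops lay at the limit of the rule. The anchor chr6:1595001-1600000, which holds the printed near match, ends 9.915 kb from the gene's start and was the last anchor inside 10 kb in 3 of the lists. Over all listed genes, the nearest anchors beyond 10 kb were at 10.051 kb, 10.051 kb, 10.158 kb and 10.419 kb in the 4 lists. The gene's start lay inside the anchor in 15, 17, 15 and 5 loops of the 4 lists.

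The DLX2 loop in all 4 lists joined the start of HAT1, a histone acetyltransferase gene, to DLX2. It ran from chr2:171925001-171930000 to chr2:172105001-172110000 in wild-type control cells and spanned 180 kb, 185 kb, 175 kb and 175 kb in the 4 lists. Its rank was 78.4 in wild-type control and 83.5 with sorbitol, and 50.1 and 24.0 in eGFP-YAP cells, so it was in the middle or lower part of the eGFP-YAP lists. The longest DLX2 loops were in eGFP-YAP cells, at 515 kb and 405 kb in control (ranks 58.2 and 95.2) and 535 kb with sorbitol (rank 82.1). DLX1, next to DLX2 and on the opposite strand, had 1 loop in each control list, of 95 kb and 75 kb, whose anchor also lay within 10 kb of the DLX2 start.

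The NKX2-2 loop in all 4 lists joined the gene, which specifies neurons of the ventral neural tube and pancreatic endocrine cells, to an intron of KIZ. In wild-type control it ran from chr20:21235001-21240000 to chr20:21510001-21515000 and spanned 275 kb, and the other lists had 255 kb, 265 kb and 270 kb. Its rank was 84.8 in wild-type control, 67.9 with sorbitol, 88.4 in eGFP-YAP control and 53.4 with sorbitol. MEIS2, a paralogue of MEIS1, had a loop of 205 kb within and just past its own gene body in wild-type control (rank 87.2), 195 kb with sorbitol (95.2), 225 kb in eGFP-YAP control (94.5) and 220 kb with sorbitol (40.6). These 4 were linked through each other, not matched in every pair.

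**Figure D4:**
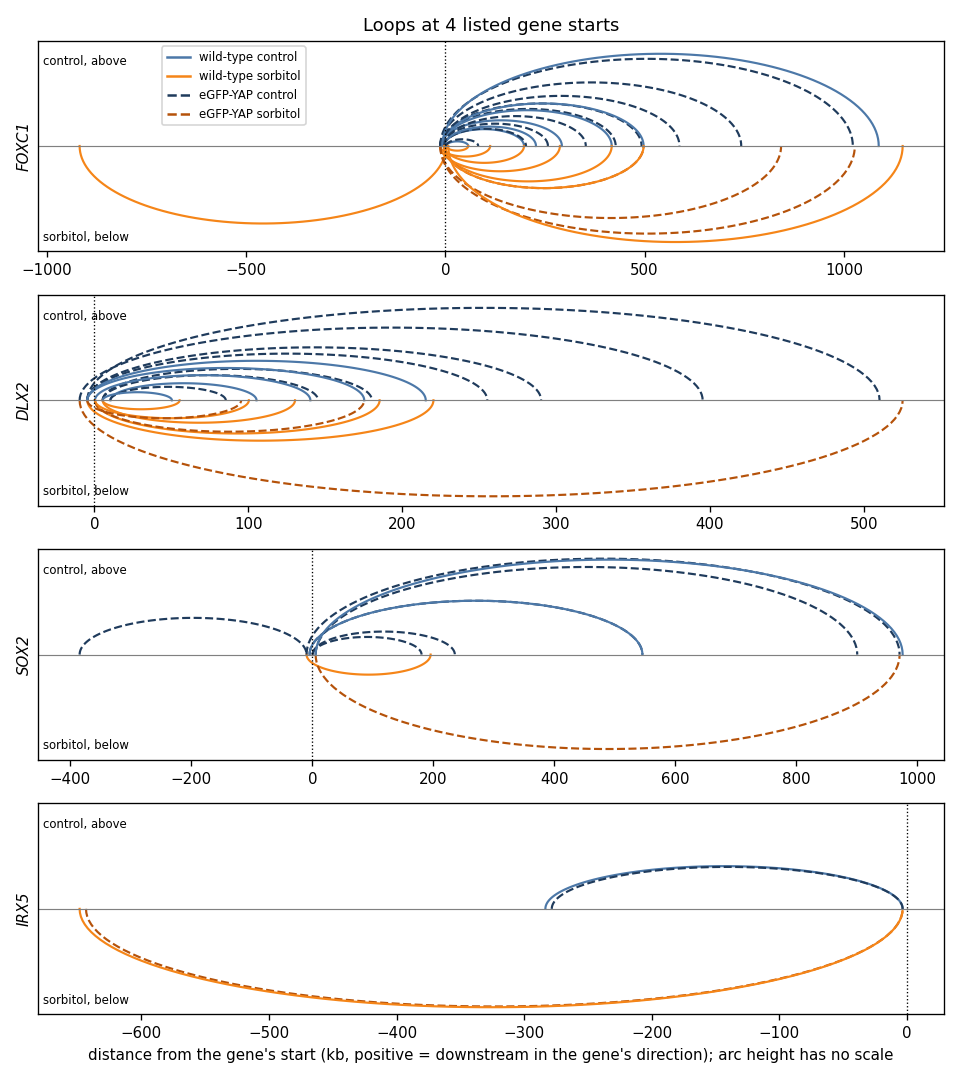
Loops at FOXC1, DLX2, SOX2 and IRX5, drawn as arcs over the distance in kb from the gene's start (positive is downstream in the gene's direction), with control loops above the line and sorbitol loops below; solid arcs are wild type and dashed arcs eGFP-YAP, and arc height has no scale. At FOXC1 26 of 27 far anchors are downstream, and at IRX5 both control loops span 280 and 275 kb while both sorbitol loops span 645 and 640 kb.

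Control-only loops at listed genes were compared between the lines. Of 42 wild-type control-only loops at listed genes, 15 (35.7%) matched an eGFP-YAP control-only loop, against 33.5% of all control-only loops, and of 76 eGFP-YAP control-only loops 14 (18.4%, against 27.3%) matched a wild-type one. The highest by mean rank was an eGFP-YAP control loop of DLX2 that spanned 405 kb (rank 95.2) and matched a wild-type loop of 415 kb (93.3) whose near anchor lay beyond the 10 kb limit. Next was the SOX2 loop shown above, from chr3:181705001-181710000 to chr3:182255001-182260000 in both lines, a span of 550 kb. SOX2, a factor of pluripotent and neural progenitor cells, had this loop at rank 97.1 in wild type and 89.3 in eGFP-YAP cells. SIX3, which patterns the forebrain and eye, had a control-only loop of 470 kb in wild type (485 kb in the eGFP-YAP line, mean rank 90.4) that reached into CAMKMT, and its eGFP-YAP partner lay beyond the 10 kb limit. FOXA2, a pioneer factor of endoderm, had one of 260 kb and 250 kb (89.9). NEUROG2 had one of 195 kb and 205 kb to an anchor in ALPK1 (89.4). LHX9, a LIM-homeodomain gene of gonad and limb development, had one of 305 kb in both lines (85.1).

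The next of these loops were at MEIS1 and ZIC2. The MEIS1 loop spanned 1420 kb (rank 96.5) in the wild-type list and 1410 kb (67.9) in the eGFP-YAP list, and the ZIC2 loop 250 kb and 255 kb (81.0 and 78.2). These 8 were chosen by their mean rank, so their place in the upper part of both control lists follows from that choice. The other matched control-only loops had mean ranks from 67.5 (EN1) down to 8.18 (PAX5). SOX2 still had other loops with sorbitol, the wild-type one of 205 kb (rank 78.5) and the eGFP-YAP one of 965 kb (94.4). The latter matched a wild-type control loop of 970 kb (95.5), and the eGFP-YAP control loop of 980 kb (91.9) had its near anchor 15 kb away and so did not match.

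Sorbitol-only loops at listed genes that matched between the lines were 2 of 24 in wild type (8.33%, against 15.5% of all sorbitol-only loops) and 3 of 14 in eGFP-YAP cells (21.4%, against 19.2%). The highest by mean rank joined IRX3 and IRX5, homeodomain genes of the same cluster that act in limb, heart and neural patterning. In wild type it ran from chr16:54280001-54285000 to chr16:54925001-54930000, a span of 645 kb at rank 96.0, and in eGFP-YAP cells from chr16:54285001-54290000 to the same far anchor, 640 kb at rank 85.8. The eGFP-YAP loop of FOXC1 that spanned 855 kb (rank 34.4) matched a wild-type loop of 870 kb (46.5) whose near anchor lay beyond the 10 kb limit. The remaining loop joined NKX2-5, a heart and spleen factor, to the start of STC2, which encodes a secreted glycoprotein, over 95 kb (rank 51.8) in wild-type cells and 100 kb (15.7) in the eGFP-YAP line.

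The IRX3 to IRX5 loop was also the only loop that joined the starts of 2 listed genes. There were 0 such loops in each control list and 1 in each sorbitol list. For the 0 of 59 and 0 of 87 control loops, the Wilson intervals allow shares up to 6.11% and 4.23%. In the control lists the same IRX5 anchor was joined to a site between the genes instead, at chr16:54645001-54650000 in wild type (280 kb, rank 61.8) and chr16:54650001-54655000 in eGFP-YAP cells (275 kb, rank 36.6), and these loops had no sorbitol partner in either line. IRX3 had 0 loops in both control lists. No loop at a listed gene had a start of the 87 other developmental genes at its far anchor, and among loops at any protein-coding start such far anchors were 0.107%, 0.164%, 0.100% and 0.185% in the 4 lists, so counts of 0 carry little information. Starts of genes outside that list were not counted there. The wild-type sorbitol EMX1 loop of 295 kb (rank 50.9) had the starts of NOTO and SMYD5, which are not on it, at its far anchor.

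The far anchor of a listed gene's loop lay within 10 kb of any protein-coding start in 7 of 59 loops (11.9%) of the wild-type control list and 11 of 41 (26.8%) with sorbitol. In eGFP-YAP cells the counts were 6 of 87 (6.90%) and 10 of 25 (40.0%). Over all loops, 6.98%, 34.3%, 9.95% and 38.9% had a coding start at both anchors in the 4 lists. Among loops with at least 1 anchor at a protein-coding start, the share was 19.0% in wild-type control, 55.4% with sorbitol, 23.6% in eGFP-YAP control and 57.4% with sorbitol. The listed genes' shares were below those of loops at any coding start in all 4 lists, and higher with sorbitol than in control in both lines, as in the wider set. Examples with sorbitol were the FOXC1 loops to EXOC2 (920 kb) and WRNIP1 (1140 kb, rank 92.5), the NKX2-2 loop to XRN2 (205 kb, rank 79.0) and the ISL1 loop to PELO and ITGA1 (1410 kb, rank 88.7). These stood high in their lists, while others stood low, such as the eGFP-YAP loop of FOXD3 to ALG6 (rank 1.90). In the upper 50% of each sorbitol list by score, such loops were 10 of 27 (37.0%) in wild type and 2 of 10 (20%) in eGFP-YAP cells. The same share over all loops was not computed at that cut.

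Loops at listed genes had larger median spans than loops at any coding start in all 4 lists. The span, the distance between anchor centres, had a median of 290 kb in wild-type control (interval 230 to 470 kb, range 35 to 1420 kb) and 265 kb with sorbitol (200 to 370 kb, range 50 to 1140 kb). In eGFP-YAP cells it was 390 kb in control (310 to 505 kb, range 35 to 1605 kb) and 410 kb with sorbitol (210 to 710 kb, range 40 to 1410 kb). Medians at any protein-coding start were 185, 185, 210 and 200 kb in the same order, and over all loops 240, 215, 260 and 230 kb. At least 500 kb were spanned by 32.2%, 22.0%, 39.1% and 48.0% of the listed genes' loops and by 17.6%, 14.2%, 21.2% and 17.2% of all loops. The intervals of the control and sorbitol medians overlapped widely in each line, and with anchors within 5 kb of the start the eGFP-YAP sorbitol median was 245 kb. The longest loop was the MEIS1 loop of 1605 kb in the eGFP-YAP control list, and the median MEIS1 loop spanned 765 kb. Among other genes with at least 3 loops, NKX6-1 had a median span of 730 kb, DLX5 700 kb, ISL1 630 kb, EMX2 575 kb and SOX2 550 kb, while DLX2 had 175 kb, GATA2 170 kb and NKX2-5 137.5 kb. NKX6-1 acts in pancreatic beta cells and motor neurons, ISL1 in motor neurons and heart progenitors, and GATA2 in blood progenitors.

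**Figure D5:**
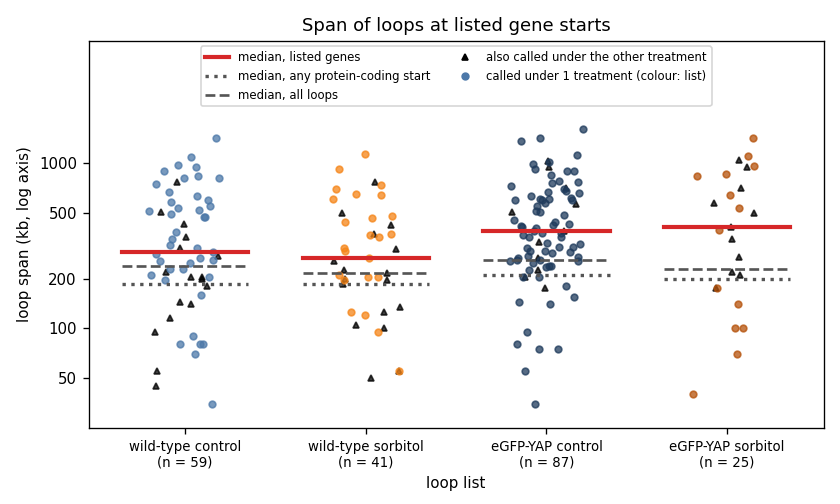
Span of each loop at a listed gene (points, kb on a log axis) in the 4 lists, with triangles for loops also called under the other treatment of the same line and lines for the medians. The listed genes' medians of 290, 265, 390 and 410 kb lie above those of loops at any coding start, 185, 185, 210 and 200 kb.

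Seen from the gene's start, most far anchors lay downstream, in the direction of transcription. The share was 71.2% in wild-type control, 70.7% with sorbitol, 77.0% in eGFP-YAP control and 76.0% with sorbitol, while at any protein-coding start it was 51.5%, 50.03%, 53.2% and 50.3%. Without FOXC1, DLX1 and DLX2 it was 66.0%, 60.7%, 73.2% and 68.4%. That choice keeps DLX5, whose 14 loops all had the far anchor downstream. The side was taken from the nearest listed start, and the 2 loops that DLX5 shared with DLX6 ran upstream as seen from DLX6. Of 24 genes with at least 3 loops, 10 had every far anchor downstream, namely DLX2, DLX5, EMX2, EN1, GATA2, GBX2, MEIS2, NEUROG2, NKX2-2 and NKX6-1. Another 5, IRX5, MSX2, SIX3, TBX2 and TBX3, had every far anchor upstream, and 9 had far anchors on both sides. The loops of 1 gene often share an anchor, so they are not independent of each other.

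Near anchors at listed genes had a higher median CpG observed to expected ratio than near anchors at any coding start, and far anchors did not. The ratio in the near anchor had a median of 0.560 in wild-type control, 0.616 with sorbitol, 0.532 in eGFP-YAP control and 0.524 with sorbitol. At any protein-coding start it was 0.276, 0.357, 0.283 and 0.392, and over all anchors 0.224, 0.283, 0.229 and 0.307. The far anchors had 0.213, 0.263, 0.236 and 0.292, near the level of all anchors and below the far anchors at any coding start (0.238, 0.329, 0.246 and 0.352). A CTCF motif match was present in 23.7%, 17.1%, 25.3% and 16.0% of near anchors and in 13.6%, 12.2%, 31.0% and 24.0% of far anchors, and in 24.9%, 21.2%, 34.1% and 28.2% of all anchors. Both anchors had motifs on a single strand each in only 2, 0, 8 and 1 loops, of which 2 and 6 in the control lists and 1 in the eGFP-YAP sorbitol list had them facing each other. Over all loops scored in this way the share facing each other was 67.4%, 54.4%, 76.2% and 71.3%, and counts this small cannot be set against it. Which loops are held by CTCF was not tested.

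The score ranks of the loops at listed genes were spread over their lists. The median was 61.8 in wild-type control (interval 46.3 to 79.6), 62.2 with sorbitol (45.3 to 79.0), 45.9 in eGFP-YAP control (38.7 to 63.3) and 44.6 with sorbitol (39.5 to 77.0), and every one of these intervals held the middle of its list. Loops called again had a median rank of 78.4 (34.9 to 86.6) in wild-type control beside 55.9 (44.3 to 79.6) for control-only loops, and 82.4 (50.1 to 94.5) beside 42.4 (36.6 to 53.7) in eGFP-YAP control. In the sorbitol lists the medians were 73.6 for loops with a control partner and 56.8 for sorbitol-only loops in wild type, and 47.5 and 41.0 in eGFP-YAP cells. The intervals overlapped in each list.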

How the data were processed

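In situ Hi-C loop lists of 4 conditions were used, 1 pooled list each. Per the file headers, the authors deposited the coordinates of both 5 kb anchors with the column names of the SIP loop caller, a peak score on no fixed scale, and a probability of enrichment that is a fraction and was not filtered further. The caller's version and settings, the aligner, the map normalization, the depth and the replicates pooled are not given in the sources used here. The builds hg38 and GRCh38 are named in the submitters' processing notes. The number of loops was the only measure of depth.

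Gene starts are 5′ ends of GENCODE release 44 gene records. Loops matched when both anchor centres lay within 10 kb, and scores were used only as ranks within a list. Shares have Wilson, medians order-statistic and ratios exact Clopper-Pearson 95% intervals (Python 3.11.15, pandas 2.3.3, scipy 1.17.1). Matching and counting were tested on simulated data. Loops named were those joining 2 listed genes, those in all 4 lists, the 8 highest-ranked treatment-only loops matched between lines, and the 5 genes with most loops in each list. Other genes and loops named as examples were chosen after their values were seen. The members and lists were chosen with earlier results of these data known. Alternatives were a start window of 5 or 25 kb, the upper 50% of each list, equal list lengths, matching at 0 or 25 kb and, chosen after seeing the data, leaving out FOXC1, DLX1 and DLX2. Columns of samples outside the lists were not present (0).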

Additional observations from a re-analysis of the deposited data

Results flagged for a closer look

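The sorbitol minus control difference at listed genes had opposite signs in the lines for 6 of 10 measures, and with 1 list per condition none of these differences between lines was tested. The median span differed by -25 kb in the wild-type lists and by 20 kb in the eGFP-YAP lists. These signs depended on the settings. With anchors within 5 kb of the start both turned (260 to 300 kb and 365 to 245 kb, control to sorbitol), in the upper 50% of each list both medians were higher with sorbitol (345 to 365 kb and 477.5 to 607.5 kb), and at equal list length both were lower (345 to 280 kb and 435 to 410 kb). The share of loops spanning at least 500 kb differed by -10.3 percentage points in wild type and 8.92 in eGFP-YAP cells. The share with no coding start between the anchors differed by -9.30 points in wild type and 7.86 in eGFP-YAP cells. The listed gene's own start was counted when it lay between the anchors, so a small shift of the near anchor can change this measure. Over all loops the shares were 28.6% in control and 20.2% with sorbitol in wild type, and 23.9% and 15.9% in eGFP-YAP cells. The median score rank differed by 0.456 in wild type and -1.28 in eGFP-YAP cells, and with anchors within 5 kb both medians were lower with sorbitol (65.2 to 62.9 and 42.9 to 40.4), and within 25 kb both signs turned (63.2 to 56.4 and 48.0 to 52.1). The median CpG observed to expected ratio of near anchors differed by 0.0559 in wild type and -0.00765 in eGFP-YAP cells. The sorbitol to control ratio of loop counts at listed genes, minus that at any protein-coding start, was 0.0400 for wild type and -0.186 for eGFP-YAP cells.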

How the results depend on the processing

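No paired analysis was possible because each condition has 1 pooled list with no replicate, and leaving out a replicate was not possible for the same reason. Of 134 recomputed values, 108 stayed within the 95% interval of the reported value, or close to it for counts, and 26 moved outside it. The share of listed genes with a loop moved in the control lists to 35.6% (wild type) and 42.4% (eGFP-YAP) with a window of 5 kb and to 66.1% and 74.6% with 25 kb. In the upper 50% of each list by score it was 32.2% and 30.5% in the control lists and 16.9% with sorbitol in eGFP-YAP cells, and at equal list length 28.8% and 25.4% in control, since shorter lists hold fewer loops. The share of loops with a coding start at the far anchor was 3.03%, 2.5% and 20% (wild-type control, eGFP-YAP control and eGFP-YAP sorbitol) in the upper 50%, and 3.45% and 0% in the control lists at equal length. The cause was not tested. The median rank in eGFP-YAP control was 65.9 in the upper 50%. Loops were ranked anew within that shorter list, so this value is not on the scale of the reported 45.9. At equal length the sorbitol to control ratio was 1.38 (wild type) and 0.893 (eGFP-YAP), the wild-type sorbitol-only share 75%, and the eGFP-YAP share called again 25%. For the cut lists, the shares called again, sorbitol-only or with a coding start at the far anchor were not computed over all loops. The values at listed genes in these lists therefore cannot be set against loops in general. With identical anchors required (0 kb), 3.39% of control loops in wild type and 0% in eGFP-YAP cells were called again, against 0.837% and 2.41% of all loops, and 95.1% and 100% of sorbitol loops had no partner. Over all loops, 127 control loops in wild type and 458 in eGFP-YAP cells had an identical partner, in sorbitol lists of 5906 and 5577 loops. With 25 kb the eGFP-YAP sorbitol-only share was 32%. Sorbitol-only shares over all loops were not computed at either distance, so no excess or lack at listed genes can be read from these values. Without FOXC1, DLX1 and DLX2 the wild-type values were 14.9% called again and 75% sorbitol-only. Counts of 25 to 87 loops per list limit every share, and a list cut by score is not a list from fewer reads.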
